A study of Mus musculus with 9 samples.

Results

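Expression of 41 genes for subunits of chromatin remodelling complexes was examined in mouse naïve embryonic stem cells (mESCs) and primed epiblast stem cells (mEpiSCs). The members were the rows of the count table whose Ensembl IDs carry the listed gene names, 41 of 54232 gene IDs. They were taken as 17 BAF genes (*Smarc*, *Arid*, *Actl6* and associated bromodomain subunits), 18 CHD and NuRD genes, and 6 ISWI and INO80 genes. *Smarca1* and *Smarca5* encode the ATPases of ISWI complexes and were placed with them despite their *Smarc* names.

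The cells were of the C57 x CBA background, and the paper's line of this background carried GFP driven by the distal *Oct4* promoter. Primed cells were not derived from epiblasts but were made by converting naïve mESCs. Naïve cells were grown in serum with LIF, and primed cells were converted and grown in medium with bFGF and Activin A. Both were cultured on mitomycin C-inactivated mouse embryonic fibroblasts (MEFs) as feeder cells. In the paper, passages are those of expansion in the naïve or the primed condition. Poly(A) RNA of each state was sequenced after 5 passages (P5) and 15 passages (P15) with 2 libraries per group, and 1 library was made from MEFs. Whether the 2 libraries of a group came from separate cultures is not stated in the labels, so p-values measure the spread between these libraries, which may be technical.

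Chromatin remodelling complexes use the energy of ATP to slide, evict or exchange nucleosomes. BAF complexes mainly open chromatin at enhancers and promoters, and embryonic stem cells are known for a form built on the ATPase Smarca4 with Smarcc1 and Actl6a, while neurons exchange Actl6a for Actl6b. NuRD joins a CHD-family ATPase to the histone deacetylases Hdac1 and Hdac2 through Mta, Mbd and Gatad2 subunits, and in embryonic stem cells it is known for a role in leaving self-renewal. ISWI complexes space nucleosomes evenly, and INO80-class complexes exchange histone variants.

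Total counts were 14378051 to 20985136 in the 8 pluripotent libraries and 25646547 in MEFs. Levels are given as CPM, that is counts brought to one shared library total with TMM scaling (a correction of library size for differences in composition) over the 9 libraries. The state labels were checked against markers. The 4 naïve markers (*Zfp42*, *Esrrb*, *Klf2*, *Nr0b1*) summed to 1249 to 1430 CPM in naïve and 23.7 to 112 CPM in primed libraries, and the 4 primed markers (*Fgf5*, *Otx2*, *T*, *Cer1*) to 13.0 to 28.0 and 576 to 591 CPM. RNA of fibroblast marker genes was found in all libraries. The 25 fibroblast markers summed to 14220 to 14330 CPM in naïve and 9654 to 9930 CPM in primed cells at P5, 22650 to 23780 and 18150 to 19030 CPM at P15, and 90870 CPM in MEFs, and each of the 25 was above 3 counts in at least 1 library of every group. Single markers ranged from 2.77% of the MEF level (*Acta2*) to 391% (*Dcn*) in primed libraries and from 6.03% (*Col3a1*) to 95.5% (*Fn1*) in naïve libraries, so that feeder cells cannot be told apart from expression of some of these genes by the pluripotent cells. The 8 mesendoderm markers summed to 13.6 to 20.3 CPM in naïve and 260 to 303 CPM in primed libraries, and the 10 neural markers to 251 to 305 CPM in naïve and 146 to 257 CPM in primed libraries. In such bulk samples, fewer cells of a type and less RNA per cell cannot be told apart.

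All 41 genes had rows in the table, and 40 had enough counts to be tested (at least 10 counts in at least 2 libraries). The exception was *Actl6b*, the neuronal actin-like subunit, with 0 to 2 counts in the naïve and early primed libraries, 6 and 5 counts in the late primed libraries and 0 in MEFs. Per kilobase of exon, the most abundant members in naïve cells at P5 were *Mbd3* (95.5 CPM per kb), *Chd4* (85.6), *Hdac1* (73.9), *Mta1* (64.3) and *Smarca4* (52.6). These 5 were also the most abundant in primed cells at P15, where *Chd4* led with 88.6 CPM per kb and *Mbd3* followed with 85.8. At the low end of the tested members in naïve cells at P5 stood *Smarca2*, *Smarcd3* and *Chd5* with 1.196, 1.216 and 1.43 CPM per kb. The main subunits of NuRD and the ATPase of BAF were thus in the upper part of the range in both states, and the alternative ATPases *Smarca2* and *Chd5* at its low end.

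To show the start regions of members with large differences in expression, the 250 bases before the RefSeq start of 3 genes are printed 5′ to 3′ on the strand of the gene (GRCm38.p6, the patch of the build mm10 used for the counts). These include the CHD genes with the largest rise and the largest fall in primed cells at P15. They are *Chd6* (chr2:161109087-161109336, minus strand) and *Chd5* (chr4:152338401-152338650, plus strand). *Mbd3* (chr10:80399532-80399781, minus strand) is the NuRD subunit with the largest positive difference of state effect between passages. The last 19 bases of its window lie in its annotated first exon. Capitals mark matches on either strand to the GC box, spelled GGGCGG, to the CCAAT box, to the TATA box with the letters TATAAA, or to the octamer ATGCAAAT. None of these 4 patterns contains another.
Chd6: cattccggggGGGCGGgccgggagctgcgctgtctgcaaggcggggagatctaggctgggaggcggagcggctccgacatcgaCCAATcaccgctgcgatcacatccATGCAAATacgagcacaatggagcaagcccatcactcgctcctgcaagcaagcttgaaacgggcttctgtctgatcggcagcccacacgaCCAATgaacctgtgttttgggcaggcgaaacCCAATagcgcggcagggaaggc
Chd5: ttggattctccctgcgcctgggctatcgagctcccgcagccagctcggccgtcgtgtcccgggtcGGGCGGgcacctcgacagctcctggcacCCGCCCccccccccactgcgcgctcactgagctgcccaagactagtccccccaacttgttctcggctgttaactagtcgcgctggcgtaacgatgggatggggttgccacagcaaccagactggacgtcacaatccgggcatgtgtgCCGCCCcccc
Mbd3: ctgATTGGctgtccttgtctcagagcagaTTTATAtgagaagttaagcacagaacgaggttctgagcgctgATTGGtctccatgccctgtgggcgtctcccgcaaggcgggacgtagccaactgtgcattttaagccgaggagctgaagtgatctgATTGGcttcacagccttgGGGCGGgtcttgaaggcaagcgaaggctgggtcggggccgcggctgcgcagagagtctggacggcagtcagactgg
The 3 windows held 19, 21 and 14 CpG dinucleotides in that order, and each contained at least 1 GC box. The set of RefSeq windows used here covered 31 of the 41 members, in 38 windows, and the other members were not in it. Of the 38 windows, 89.5% held a GC box against 32.8% of all 32841 windows of the set. The median CpG number was 21.5 against 6. The octamer, which was added to the search after the sequences were seen, occurred in the windows of *Chd6* and *Mta2*, 5.26% of the member windows against 1.602% of all. The CCAAT box was in 28.9% of member windows and 33.9% of all windows, and the TATA box in 5.26% and 12.4%. Such matches are letters in a window and not sites of binding.

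At P5, primed cells had lower transcript levels than naïve cells for 20 of the 40 members tested, from the BAF, NuRD, ISWI and INO80 complexes, and higher levels for 8. A member counted as changed when its p from the quasi-likelihood test of edgeR, after Benjamini-Hochberg correction across all genes, was below 0.01. The differences ranged from −0.94 to 0.85 on the log2 scale, so each was smaller than 2-fold. Of all 16482 genes tested, 62.3% passed this threshold (31.2% higher and 31.1% lower) and 22.3% also changed at least 2-fold, beside 28 of 40 members (70.0%). The median log2 fold change was −0.154 over the members and 0.00776 over all genes. The balance of directions changed with the scaling. When libraries were scaled by their size alone, the median of all genes moved to 0.211, and 18 members were higher and 12 lower.

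**Figure D1:**
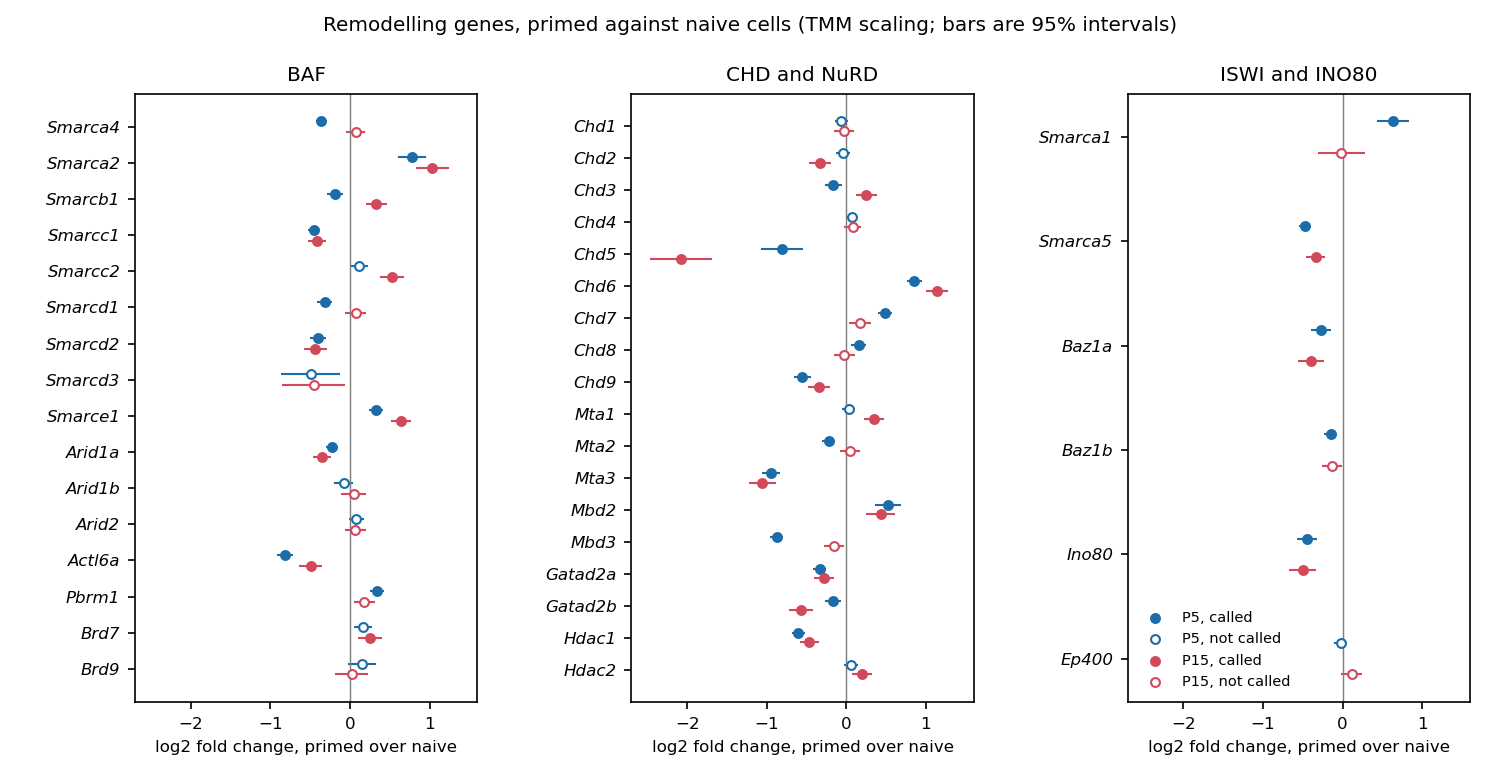
Log2 fold change of primed over naïve cells at P5 (blue) and P15 (red) for the 40 members tested, in 3 panels by complex, with 95% confidence intervals from edgeR after TMM scaling. Filled points passed an adjusted p of 0.01 and open points did not. *Chd5* lies farthest to the left and *Chd6* farthest to the right at P15, and no member reached 2-fold at P5. When scaled by library size alone, *Smarcb1*, *Chd1*, *Chd2*, *Chd3*, *Gatad2b*, *Baz1b* and *Ep400* were above 0 at P5 instead of below.

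Among the BAF genes, the actin-like subunit *Actl6a* showed the largest fall. It was at 116 and 122 CPM in naïve and at 68.6 and 64.0 CPM in primed libraries at P5, and at 119 and 124 against 92.4 and 81.0 CPM at P15. The states did not overlap at either passage, and the log2 fold changes were −0.82 ± 0.05 (SE, adjusted p = 5.56e-15) and −0.49 ± 0.07 (adjusted p = 9.02e-08) by edgeR. Exons of *Actl6a* overlap those of *Mrpl47* on the opposite strand over 11.6% of their length, and the strand setting of the counting is not stated.

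The scaffold subunit *Smarcc1*, a mark of the embryonic stem cell form of BAF, was at 320 and 331 CPM in naïve and 236 and 231 CPM in primed cells at P5. At P15 the values were 323 and 320 against 247 and 240 CPM. It fell by 0.45 ± 0.04 on the log2 scale at P5 (adjusted p = 4.23e-12, edgeR) and by 0.41 ± 0.06 at P15 (adjusted p = 6.77e-08). Its paralogue *Smarcc2* had 50.8 and 50.5 CPM in naïve and 53.8 and 53.4 CPM in primed cells at P5, and 54.7 and 51.5 against 79.2 and 74.5 CPM at P15. *Smarcc2* did not pass the test at P5 (0.11 ± 0.06, adjusted p = 0.0794, edgeR) and was higher in primed cells at P15 (0.52 ± 0.07, adjusted p = 1.09e-07). MEFs had more *Smarcc2* than all other libraries (171 CPM), and with a feeder share of the MEF counts taken off (the median over the fibroblast markers, described with *Smarca2*), its difference was 0.56 at P5 and passed the threshold (adjusted p = 0.000475).

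The ATPases of BAF went in opposite directions at P5. *Smarca4* was at 347 and 335 CPM in naïve and 260.1 and 260.0 CPM in primed cells, a difference of −0.36 ± 0.04 on the log2 scale (adjusted p = 3.76e-10, edgeR). At P15 its 4 values overlapped between the states, with 299 and 321 CPM in naïve and 342 and 316 CPM in primed cells (0.07 ± 0.06, adjusted p = 0.265, edgeR; 95% interval −0.045 to 0.194). Scaled by library size, the P15 difference was 0.18 and passed (adjusted p = 0.00849). *Smarca2*, the alternative ATPase, was at 16.7 and 17.4 CPM in naïve and 28.9 and 28.5 CPM in primed cells at P5, and at 17.8 and 17.1 against 35.7 and 36.0 CPM at P15. It rose 1.72-fold at P5 (log2 0.78 ± 0.09, adjusted p = 4.12e-09, edgeR) and 2.04-fold at P15 (1.03 ± 0.10, adjusted p = 3.82e-11).

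*Smarca2* is also a gene of the feeder cells, with 111 CPM in MEFs. Before TMM scaling, its level was 15.7% to 16.5% of that in MEFs in the 4 naïve libraries and 31.7% to 35.8% in the 4 primed libraries. The median of the 25 fibroblast markers was 17.8% and 18.5% of the MEF level in naïve and 17.5% and 13.9% in primed libraries at P5, and 21.7% and 24.6% against 26.3% and 26.1% at P15. Taking off this median share left no *Smarca2* in naïve cells and left the gene higher in primed cells at both passages, so that the size of the fold cannot be given. Since single markers were between 2.77% and 391% of the MEF level, the share to take off is not fixed by these data, and another share would give another value.

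Of the other core subunits, *Smarce1*, which carries an HMG box, was 1.26-fold higher in primed cells at P5 (131 and 132 against 108 and 106 CPM, log2 0.33 ± 0.04, adjusted p = 6.03e-08, edgeR). It was 1.56-fold higher at P15 (178 and 185 against 115.5 and 114.7 CPM, 0.64 ± 0.06, adjusted p = 1.96e-11). A pseudogene, *Smarce1-ps1*, is annotated, and how the counting treated reads with several alignments is not stated. *Smarcd2* fell at both passages (−0.40 and −0.44). *Smarcd1* fell at P5 (−0.32) and did not pass at P15 (0.07). *Smarcd3*, at 4.16 to 8.89 CPM, passed at neither (−0.49 and −0.46), although it was called at P15 without naïve replicate 1 (−0.63). Before TMM scaling, *Smarcd3* was at 17.0% to 30.5% of the MEF level, where the fibroblast marker medians were 13.9% to 26.3%. The part of feeder RNA in its level was not tested. Of the exon length of *Smarcd3*, 48.2% overlaps *Chpf2* on the opposite strand. The *Smarcd1* call was lost with library size alone (−0.11, adjusted p = 0.0281, edgeR).

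The subunits that set the type of BAF complex followed. *Arid1a*, the DNA-binding subunit of canonical BAF, was lower in primed cells at P5 (298 and 300.2 against 357.1 and 356.9 CPM, −0.22) and at P15 (283 and 273 against 359 and 344 CPM, −0.35), and the P5 call was lost with library size alone (−0.02). *Arid1b* and *Arid2* passed in neither comparison, with log2 differences from −0.08 to 0.08. *Pbrm1* of the PBAF form was higher at P5 (0.34, adjusted p = 3.17e-08, edgeR) and did not pass at P15 (0.18, adjusted p = 0.0127), where it was called without primed replicate 1 (0.23). *Brd7*, another PBAF subunit, passed at P15 (0.25) and not at P5 (0.16), where it was called without primed replicate 2 (0.23), and *Brd9* of the non-canonical form passed at neither. Altogether 3 BAF genes were higher and 7 lower at P5, and 5 higher and 4 lower at P15, of 16 tested. These are 62.5% at P5 and 56.2% at P15, close to the 62.3% and 56.6% of all genes. *Smarcb1*, a subunit of the nucleosome-gripping core, is counted in opposite directions at the 2 passages and is described with the passages.

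At P15, 10 members were higher and 14 lower in primed cells, and 4 of them changed at least 2-fold (*Smarca2*, *Chd5*, *Chd6* and *Mta3*). Over all 15733 genes, 56.6% were called (28.2% higher and 28.4% lower) and 23.2% changed at least 2-fold. The 24 called members were 60.0% of those tested. The median log2 fold change was 0.003 over the members and −0.00387 over all genes. Under scaling by library size, 15 were higher and 13 lower, and the median of all genes was 0.101. The calls of the states were the same way at both passages for 17 members (4 higher and 13 lower) and opposite for 2, *Smarcb1* and *Chd3*. The share of all genes called the same or the opposite way was not counted, so these numbers have no background.

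The largest rise was that of *Chd6*, a CHD7-class ATPase. It had 71.5 and 75.0 CPM in naïve and 129 and 130 CPM in primed cells at P5, and 60.6 and 59.3 against 135 and 132 CPM at P15. All 4 primed libraries lay above all 4 naïve libraries, and MEFs had 62.9 CPM. The folds were 1.81 at P5 (log2 0.85 ± 0.05, adjusted p = 3.57e-16, edgeR) and 2.20 at P15 (1.14 ± 0.07, adjusted p = 2.85e-17).

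The other CHD7-class ATPases differed from it. *Chd7*, known from CHARGE syndrome, was at 97.3 and 96.6 CPM in naïve and 130.3 and 136 CPM in primed cells at P5 (0.49 ± 0.04, adjusted p = 4.16e-11, edgeR), and at 80.4 and 87.8 against 96.7 and 94.1 CPM at P15, where it did not pass (0.17 ± 0.07, adjusted p = 0.0283). *Chd7* was nearly absent from MEFs (5.23 CPM). *Chd9* was lower in primed cells at both passages (−0.55 and −0.34). *Chd8* was called at P5 alone, at 0.15 with values of 127 and 120 against 113 and 114 CPM.

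*Chd5*, a NuRD ATPase known mainly from brain and testis, showed the deepest fall. Naïve cells had 12.8 and 14.6 CPM and primed cells 7.70 and 7.65 CPM at P5. At P15 there were 11.9 and 13.7 against 3.44 and 2.67 CPM, and MEFs had 1.36 CPM. The level in primed cells was 1.75-fold lower at P5 (log2 −0.80 ± 0.13, adjusted p = 2.52e-06, edgeR) and 4.21-fold lower at P15 (−2.08 ± 0.19, adjusted p = 6.01e-12). The main NuRD ATPase, *Chd4*, was between 659 and 722 CPM in all 8 libraries and passed at neither passage (0.07 and 0.08, with 95% intervals of −0.003 to 0.135 and −0.028 to 0.189), although with library size alone it was higher in primed cells at both (0.27 and 0.19).

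*Chd3*, the third NuRD ATPase, had 85.6 and 82.4 CPM in naïve and 73.0 and 74.1 CPM in primed cells at P5, and 91.5 and 98.2 against 117 and 111 CPM at P15. It was lower in primed cells at P5 (−0.16, adjusted p = 0.00491, edgeR) and higher at P15 (0.25, adjusted p = 0.00113). MEFs had 559 CPM of *Chd3*, and before TMM scaling the pluripotent libraries held 15.5% to 23.0% of that level, a range within that of the fibroblast marker medians. With the feeder share taken off, too few *Chd3* counts were left for a test, so its level in the pluripotent cells and in feeder cells cannot be told apart.

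**Figure D2:**
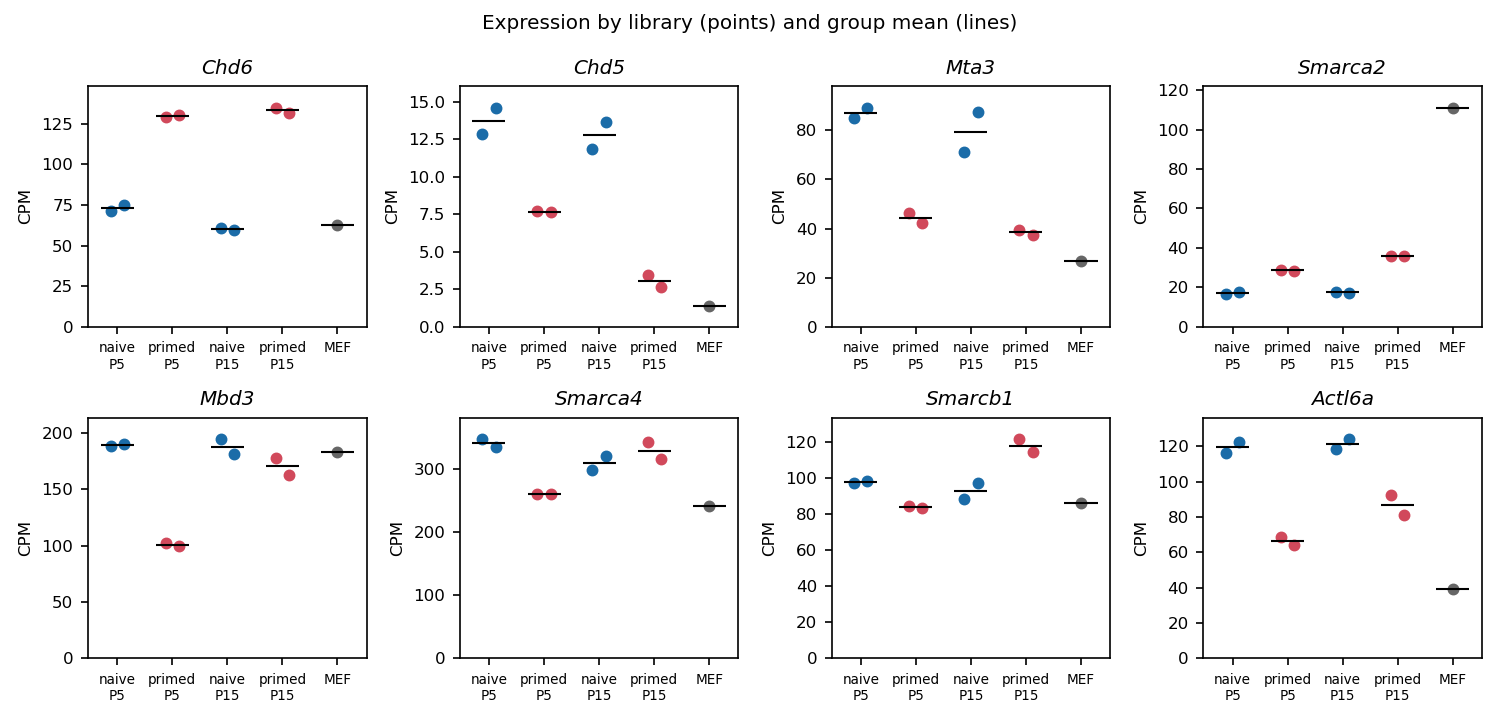
CPM of 8 members in each library (points) with the group mean (line), for naïve (blue) and primed (red) cells at P5 and P15 and for the single MEF library (grey). Every axis starts at 0. Naïve and primed libraries are apart at both passages for *Chd6*, *Chd5*, *Mta3*, *Smarca2* and *Actl6a*, and *Mbd3* of primed cells is near 100 CPM at P5 and 163 to 178 CPM at P15.

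Of the MTA scaffold subunits of NuRD, *Mta3* was about halved. It was at 84.9 and 89.1 CPM in naïve and 46.2 and 42.2 CPM in primed cells at P5, and at 71.0 and 87.6 against 39.5 and 37.5 CPM at P15. The log2 fold changes were −0.94 ± 0.06 (adjusted p = 4.54e-15, edgeR) and −1.05 ± 0.08 (adjusted p = 1.32e-13). *Mta1* did not pass at P5 (199 and 200.5 against 200.7 and 198 CPM) and was 1.28-fold higher in primed cells at P15 (230.2 and 212 against 176 and 169 CPM, adjusted p = 5.12e-06, edgeR). *Mta2* was lower at P5 (−0.22) and not called at P15 (0.05), and its P5 call was lost with library size alone (−0.02).

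The methyl-CpG binding subunits moved apart. *Mbd3*, which is needed to assemble NuRD in embryonic stem cells, had 189 and 190.5 CPM in naïve and 103 and 99.4 CPM in primed cells at P5, a 1.84-fold lower level (−0.88 ± 0.04, adjusted p = 1.55e-17, edgeR). This was the smallest adjusted p of all members at P5. At P15 the values of 194 and 182 against 178 and 163 CPM did not differ at the threshold (−0.15 ± 0.06, adjusted p = 0.0341, edgeR), and without naïve replicate 2 *Mbd3* was called lower at P15 as well (−0.23). *Mbd2*, which binds methylated DNA, rose from 24.9 and 27.9 CPM in naïve to 38.6 and 35.7 CPM in primed cells at P5 (0.53, adjusted p = 7.41e-07, edgeR) and from 31.1 and 30.4 to 40.3 and 43.3 CPM at P15 (0.43, adjusted p = 6.2e-05).

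The deacetylase *Hdac1* was lower in primed cells at both passages, with 250 and 259 against 168 and 160 CPM at P5 (−0.60 ± 0.04, adjusted p = 2.39e-14, edgeR) and 264 and 258 against 191 and 190 CPM at P15 (−0.47 ± 0.06, adjusted p = 9.19e-09). Its partner *Hdac2* was at 132 and 126 against 134 and 129 CPM at P5 (0.06, adjusted p = 0.235, edgeR) and at 154 and 148 against 169 and 181 CPM at P15, where it passed at 0.20 (adjusted p = 0.00482). *Gatad2a*, which bridges the Mbd and CHD subunits, fell at both passages (−0.34 and −0.28). *Gatad2b* fell more at P15, from 104 and 94.4 to 64.6 and 70.3 CPM (−0.57 ± 0.07, adjusted p = 1.02e-08, edgeR), than at P5 (−0.16), and the difference is tested with the passages. The pair of CHD1-class ATPases, *Chd1*, known for keeping embryonic stem cell chromatin open, and *Chd2*, was not called at P5, and *Chd2* was lower at P15 (−0.33, adjusted p = 6.17e-05, edgeR). Of the exons of *Chd2*, 18.4% overlap the noncoding gene *1810026B05Rik* on the same strand.

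Among the ISWI and INO80 genes, 4 of 6 fell and 1 rose at P5, and 3 of 6 fell at P15, where 62.3% and 56.6% of all genes were called. *Smarca5*, the main ISWI ATPase of embryonic stem cells, was at 278 and 279 CPM in naïve and 199 and 192 CPM in primed cells at P5 (−0.48 ± 0.04, adjusted p = 1.48e-12, edgeR), and at 301 and 287 against 225 and 243 CPM at P15 (−0.34 ± 0.06, adjusted p = 4.91e-06). *Smarca1*, the X-linked ISWI ATPase, went the other way at P5, with 14.9 and 14.1 against 21.4 and 22.5 CPM (0.63 ± 0.10, adjusted p = 1.53e-06, edgeR), and overlapped between states at P15, with 11.1 and 11.8 against 10.8 and 12.1 CPM. MEFs had 30.6 CPM of *Smarca1*. A pseudogene of *Smarca5*, *Smarca5-ps*, is annotated.

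*Ino80*, the ATPase of the INO80 complex, fell from 53.9 and 52.1 to 38.9 and 37.0 CPM at P5 (−0.45 ± 0.06, adjusted p = 2.75e-07, edgeR) and from 48.5 and 51.9 to 35.3 and 36.4 CPM at P15 (−0.50 ± 0.08, adjusted p = 2.41e-06). *Baz1a*, the partner of Smarca5 in the ACF complex, fell by 0.27 at P5 (49.0 and 51.0 against 41.7 and 39.3 CPM, adjusted p = 0.000395, edgeR) and by 0.40 at P15 (54.2 and 51.6 against 41.7 and 39.0 CPM, adjusted p = 5.35e-05). *Baz1b*, the partner in the WICH complex, was called lower at P5 only (−0.15, and −0.14 at P15 with an adjusted p of 0.049 by edgeR). *Ep400* of the TIP60 complex did not differ at the threshold at either passage (−0.03 and 0.11).

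Small differences rested on single libraries. Of the 28 calls at P5, 22 held with each library left out in turn. Leaving out primed replicate 1 or primed replicate 2 ended the calls of *Smarcb1* (−0.17 and −0.15), *Chd3* (−0.12 and −0.14), *Gatad2b* (−0.11 and −0.17) and *Baz1b* (−0.12 in both), and leaving out naïve replicate 1 ended those of *Chd3* (−0.16), *Gatad2b* (−0.15) and *Chd8* (0.12). The call of *Chd8* also ended without naïve replicate 2 or primed replicate 1 (0.14 in both), and that of *Baz1a* without primed replicate 2 (−0.20). At P15, 21 of 24 calls held. Those that ended were *Brd7* without naïve or primed replicate 2 (0.16 and 0.24), *Chd3* without naïve replicate 1 (0.18), and *Hdac2* without naïve replicate 1 (0.21), naïve replicate 2 (0.15) or primed replicate 2 (0.18).

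Ratios of paralogous or partner subunits within a library do not depend on scaling between libraries. They were formed for 18 pairs from CPM per kb of exon. The ratio of *Smarcc2* to *Smarcc1* was 0.224 and 0.216 in naïve and 0.321 and 0.327 in primed cells at P5, 0.239 and 0.227 against 0.453 and 0.438 at P15, and 1.43 in MEFs. Primed libraries thus lay above naïve ones at both passages. The ratio of *Hdac2* to *Hdac1* rose likewise, from 0.407 and 0.374 to 0.616 and 0.620 at P5 and from 0.449 and 0.442 to 0.681 and 0.734 at P15, with 0.932 in MEFs. That of *Mbd2* to *Mbd3* rose 2.64-fold at P5, from 0.0815 and 0.0906 to 0.233 and 0.222, and 1.502-fold at P15, from 0.0989 and 0.104 to 0.140 and 0.164.

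The ratios of 2 NuRD pairs fell in primed cells. *Mta3* to *Mta2* went from 0.340 and 0.346 to 0.220 and 0.196 at P5 and from 0.266 and 0.355 to 0.146 and 0.142 at P15. *Chd5* to *Chd4* went from 0.0153 and 0.0183 to 0.00907 and 0.00922 at P5, and from 0.0147 and 0.0174 to 0.00399 and 0.00320 at P15. The ratios of the alternative to the main ATPase rose in ISWI and BAF. *Smarca1* to *Smarca5* was 0.0683 and 0.0641 in naïve and 0.137 and 0.149 in primed cells at P5, and 0.0470 and 0.0524 against 0.0610 and 0.0633 at P15. *Smarca2* to *Smarca4* was 0.0219 and 0.0236 against 0.0504 and 0.0497 at P5, and 0.0270 and 0.0241 against 0.0474 and 0.0517 at P15, with 0.209 in MEFs. With 2 libraries per group these ratios were not tested. In 11 of the 18 pairs both primed libraries lay between the naïve libraries and MEFs at P15. Pairs of other genes were not counted in this way, so the number has no background. These were the 7 pairs given above, rising and falling alike, with *Arid1b* to *Arid1a*, *Arid2* to *Arid1a*, *Chd3* to *Chd4* and *Baz1a* to *Baz1b*, and the part of feeder RNA in these shifts was not tested. With the feeder share taken off, the fold of primed over naïve was 2.11 at P5 and 3.41 at P15 for *Smarcc2* to *Smarcc1*. It was 1.73 and 1.74 for *Hdac2* to *Hdac1*, and 3.81 and 1.87 for *Mbd2* to *Mbd3*. For *Mta3* to *Mta2* it was 0.577 and 0.419, and for *Chd5* to *Chd4* 0.524 and 0.203. For *Smarca1* to *Smarca5* the fold went from 2.16 to 2.82 at P5 and from 1.25 to 1.18 at P15. No such fold was formed for *Smarca2* to *Smarca4* or *Chd3* to *Chd4*.

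**Figure D3:**
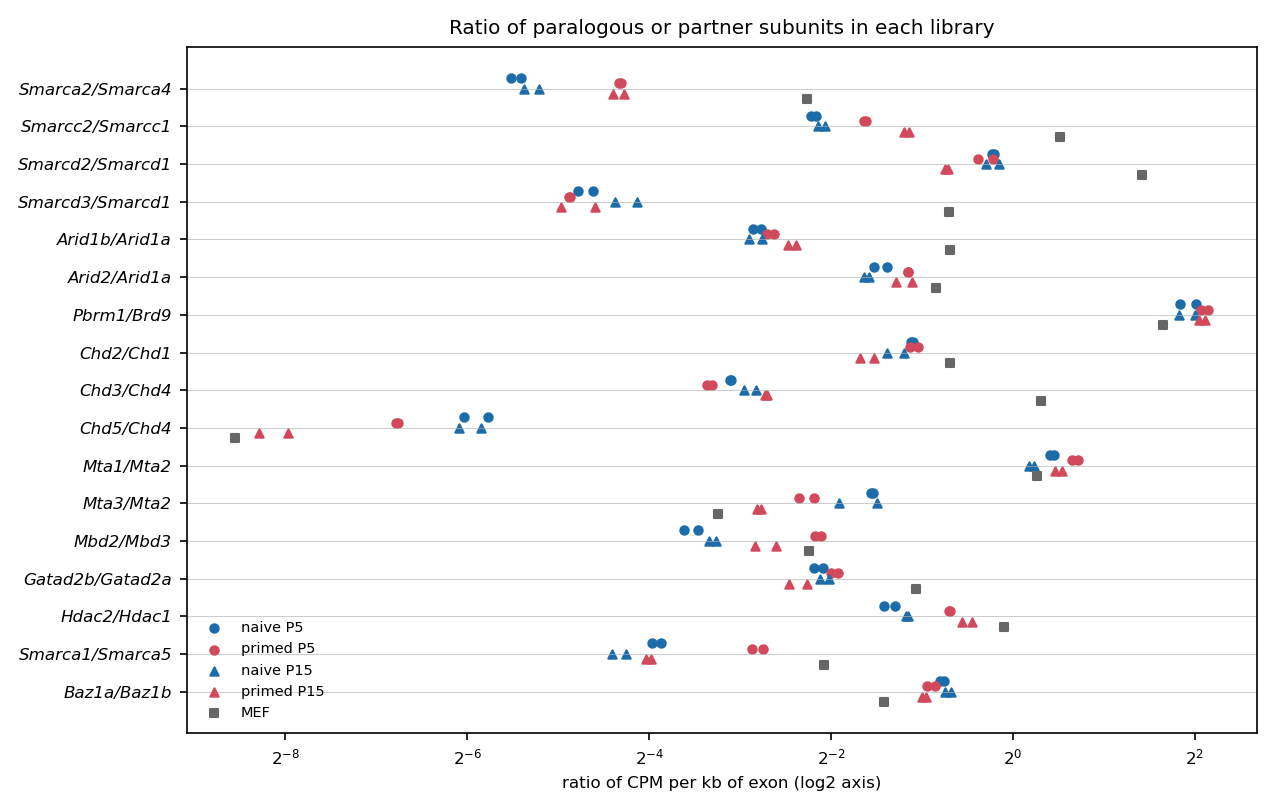
Ratio of CPM per kb of exon between 2 members in each library, on a log2 axis, for 17 pairs. Circles are P5 and triangles P15, blue is naïve and red is primed, and the grey square is the single MEF library. Primed libraries lie to the right of naïve ones for *Smarcc2* to *Smarcc1*, *Hdac2* to *Hdac1* and *Mbd2* to *Mbd3*, and to the left for *Mta3* to *Mta2* and *Chd5* to *Chd4*. The pair of *Actl6b* to *Actl6a* is left out because *Actl6b* had at most 6 counts.

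In naïve cells, 1 of 40 members was higher and 3 were lower at P15 than at P5, against 9.22% of all 15683 genes called (4.21% higher and 5.01% lower). Of all genes, 1.13% were called and changed at least 2-fold, and the members ranged from −0.44 to 0.36 on the log2 scale. *Ep400* fell from 175 and 166 to 130.4 and 120.4 CPM (−0.44 ± 0.05, adjusted p = 9.97e-05, edgeR). This call alone held with each library left out and with the feeder share taken off, where *Chd6* (−0.34), *Mta1* (−0.25) and *Hdac2* (0.29) were not called. *Chd6* (−0.29) and *Mta1* (−0.21) were also called lower and *Hdac2* (0.23) higher. *Chd6* was no longer called without replicate 2 of either passage (−0.26 in both), *Mta1* without P5 replicate 1 (−0.22), P5 replicate 2 (−0.21) or P15 replicate 2 (−0.18), and *Hdac2* without P5 replicate 2 (0.19) or P15 replicate 1 (0.20). Leaving out P15 replicate 2 added *Chd2* (−0.26), *Chd7* (−0.26) and *Mta3* (−0.28).

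In primed cells, 13 members were higher and 8 lower at P15 than at P5, against 47.1% of all 15957 genes called (24.3% higher and 22.8% lower), and 1 changed at least 2-fold against 11.6% of all genes. Of the 16 BAF genes tested, 7 rose and 1 fell, and the BAF median was 0.24 where that of all genes was −0.00116. *Mbd3* had the largest rise, 1.65-fold from 103 and 99.4 to 178 and 163 CPM (0.72 ± 0.06, adjusted p = 2.33e-11, edgeR). *Chd3* rose 1.52-fold, *Smarcc2* 1.40-fold, *Smarcb1* 1.37-fold, *Smarce1* 1.35-fold, *Actl6a* 1.28-fold and *Smarca4* 1.24-fold. Before TMM scaling, *Chd3* of primed libraries was at 16.1% and 16.4% of the MEF level at P5 and 23.0% and 21.9% at P15. The fibroblast marker medians were 17.5% and 13.9%, and 26.3% and 26.1%. With the feeder share taken off, *Chd3* had too few counts left for a test, so its rise cannot be told apart from feeder RNA. Scaling by library size alone, with the median of all genes at −0.133, gave 9 members higher and 14 lower.

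*Chd5* fell 2.57-fold between passages in primed cells (−1.36 ± 0.19, adjusted p = 8.23e-07, edgeR) and *Smarca1* 1.96-fold (−0.97 ± 0.11, adjusted p = 1.94e-08). *Chd7* (−0.51), *Chd2* (−0.50), *Gatad2b* (−0.33) and *Ep400* (−0.29) also fell. The summed fibroblast markers were higher at P15 than at P5 in both states. After the feeder share was taken off, *Smarca2* was at −0.45 between passages in primed cells (adjusted p = 0.0222, edgeR) instead of 0.29, and *Smarcc2* (0.36, adjusted p = 0.012) and *Ep400* (−0.25, adjusted p = 0.0129) were no longer called, nor were *Arid2* (−0.12) and *Chd8* (−0.27). Of the 21 calls, 15 held with each library left out. Those of *Smarca2* (0.28 and 0.26) and *Hdac1* (0.20 and 0.13) ended without P5 replicate 1 or P5 replicate 2, that of *Arid2* without these (−0.21 and −0.19) or P15 replicate 1 (−0.11), that of *Chd8* without P5 replicate 1 (−0.21), and those of *Smarca5* (0.18) and *Smarcd1* (0.23) without P5 replicate 2. Leaving out P15 replicate 1 added *Arid1a* (−0.16), *Smarcd2* (−0.20), *Brd7* (0.23) and *Mta3* (−0.27), leaving out P5 replicate 2 added *Mta3* (−0.31), and leaving out P15 replicate 2 added *Mta1* (0.18).

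The effect of state itself differed between P15 and P5 for 16 members in a test of the interaction over all 8 libraries, 11 with a higher and 5 with a lower primed-to-naïve difference at P15. Over all 16926 genes, 24.1% differed (13.3% higher and 10.8% lower), and 7.16% by at least 2-fold, as did 1 member, *Chd5*. All 6 BAF genes in this count were of the higher kind under TMM scaling. They were *Smarca4* (0.45), *Smarcb1* (0.54), *Smarcc2* (0.43), *Smarcd1* (0.40), *Smarce1* (0.33) and *Actl6a* (0.34). With library size alone, *Smarce1* (0.21) and *Actl6a* (0.22) were no longer called. *Arid1a* (−0.22) and *Pbrm1* (−0.25) were called in that setting, both of the lower kind. *Smarcb1* was lower in primed cells at P5 (84.5 and 83.6 against 97.4 and 98.4 CPM, −0.19 ± 0.05, adjusted p = 0.000707, edgeR) and higher at P15 (122 and 115 against 88.6 and 97.3 CPM, 0.33 ± 0.07, adjusted p = 4.96e-05). Its call at P5 ended without primed replicate 1 (−0.17) or primed replicate 2 (−0.15). The interaction itself held for *Smarcb1* (adjusted p = 3.79e-06, edgeR) and *Smarca4* (adjusted p = 3.05e-06) with each library left out.

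Among the CHD and NuRD genes, *Mbd3* had the largest positive interaction (0.74 ± 0.07, adjusted p = 1.78e-09, edgeR), and *Chd5* the largest negative one (−1.26 ± 0.23, adjusted p = 5.34e-05). *Chd3* (0.43), *Mta1* (0.34), *Mta2* (0.29) and *Chd6* (0.30) were positive, and *Gatad2b* (−0.39), *Chd7* (−0.30) and *Chd2* (−0.28) negative. In the ISWI group *Smarca1* alone was called (−0.63). Scaled by library size alone, 6 were positive and 8 negative, and the median of all genes was −0.114. With the feeder share taken off, the calls of *Smarcc2* (0.79), *Actl6a* (0.42), *Mta2* (0.35), *Chd2* (−0.32), *Chd7* (−0.20) and *Smarca1* (−1.05) were lost. *Chd3* had too few counts left for a test in that setting. Without naïve P5 replicate 2, 9 members in place of 16 were called.

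Over the series of leave-one-out fits, 9 of the 16 interaction calls held. The call of *Actl6a* (0.24 to 0.31 where lost) ended without naïve P5 replicate 2, primed P5 replicate 2, naïve P15 replicate 1 or primed P15 replicate 1, and that of *Smarca1* (−0.62 to −0.55) without naïve P5 replicate 2, primed P5 replicate 2, naïve P15 replicate 2 or primed P15 replicate 1. The calls of *Chd6* (0.27 to 0.29) and *Mta2* (0.23 to 0.28) ended without naïve P5 replicate 2, primed P5 replicate 1, primed P5 replicate 2 or naïve P15 replicate 2. That of *Chd2* (−0.31 to −0.21) ended without any of the libraries but naïve P15 replicate 1 and primed P15 replicate 2. That of *Chd7* (−0.31 to −0.24) ended without any but primed P5 replicate 1, naïve P15 replicate 1 and primed P15 replicate 1, and that of *Gatad2b* (−0.33) without naïve P5 replicate 2 alone.

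**Figure D4:**
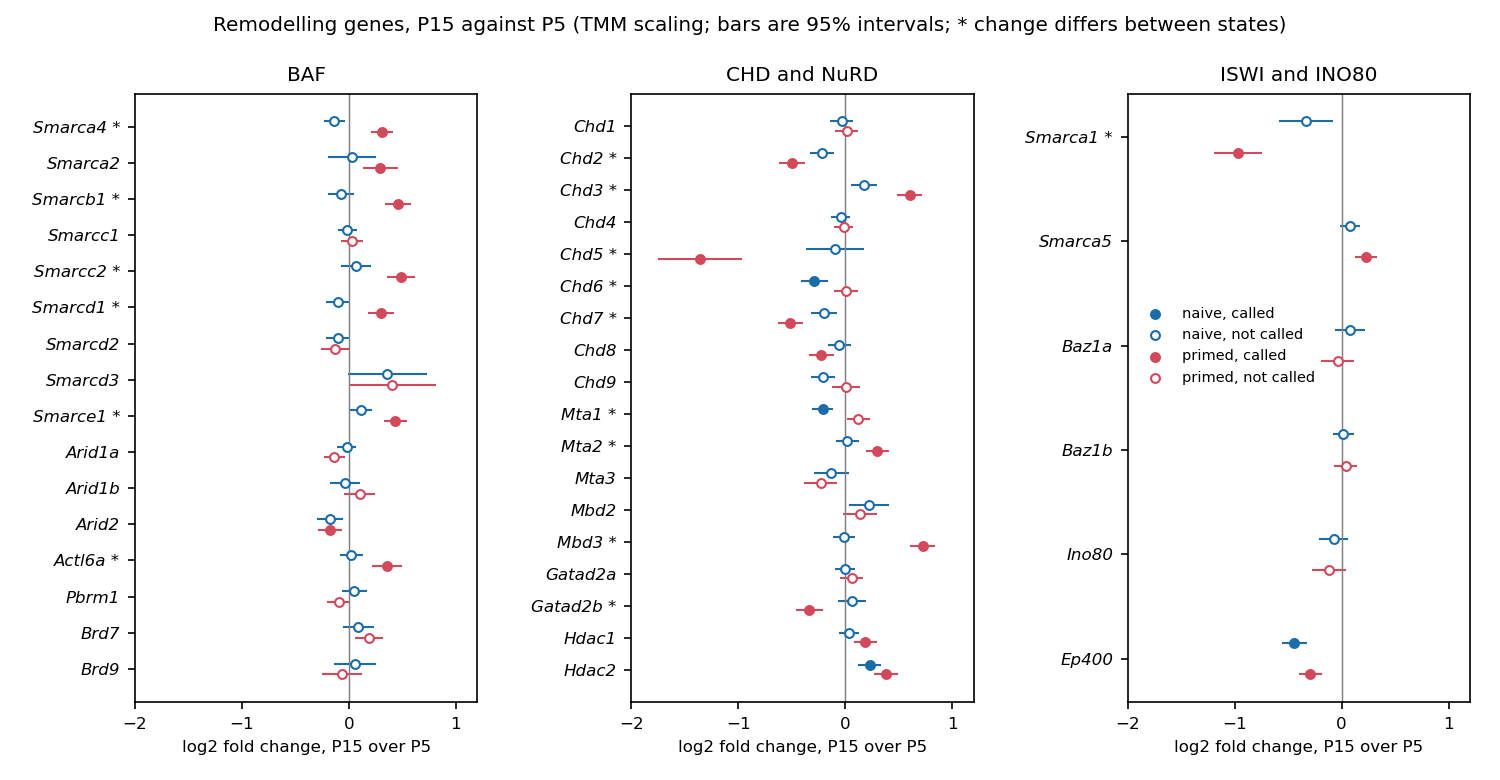
Log2 fold change of P15 over P5 in naïve (blue) and primed (red) cells for the 40 members tested, in 3 panels by complex, with 95% confidence intervals from edgeR after TMM scaling. Filled points passed an adjusted p of 0.01, and an asterisk marks the 16 members whose change differed between the states. Most naïve points lie near 0, and *Chd5* and *Smarca1* of primed cells lie farthest to the left. Scaled by library size alone, 14 primed points passed below 0 and 9 above.

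In MEFs, 11 members were above and 16 below all 8 pluripotent libraries, and 14 were within their range. The 27 members outside it were among the 40 with enough counts, and of all 17180 genes with enough counts 60.8% were outside (29.1% above and 31.6% below). Those above included *Chd3*, *Smarca2*, *Smarcc2*, *Smarcd3* and *Mbd2*, and those below *Smarca4*, *Smarcc1*, *Smarcd1*, *Actl6a*, *Chd4*, *Chd7*, *Hdac1* and *Smarca5*. *Smarcd1* was at 38.5 CPM in MEFs and at 96.1 to 130.1 CPM in the pluripotent libraries. MEFs were a single library, so these differences have no replicate check.

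A wider list of 61 further remodelling genes (other subunits of BAF, NuRD, ISWI, INO80, SRCAP and TIP60 and other SNF2-family ATPases) was read beside the members, and 60 of them were tested. At P5, 7 were higher and 29 lower in primed cells, with a median of −0.222, and at P15 12 were higher and 23 lower. These are 60.0% and 58.3% of those tested, against 62.3% and 56.6% of all genes. Of 28 other INO80, SRCAP and TIP60 genes, 3 were higher and 14 lower at P5. Among genes of at least 10 CPM, the largest falls at P5 were those of *Chd1l*, a poly(ADP-ribose)-dependent remodeller (−1.11 ± 0.09, adjusted p = 3.61e-12, edgeR), *Hells*, which supports DNA methylation (−1.09 ± 0.04, adjusted p = 1.33e-20), and *Smarcad1* (−0.91 ± 0.05, adjusted p = 2.37e-16). At P15 these were at −0.50, −1.19 and −1.18. The largest rises at P5 were those of *Bicra* of non-canonical BAF (0.62), *Actr5* of INO80 (0.46) and *Baz2b* (0.40), and they were 0.78, 0.56 and 0.29 at P15, where *Baz2b* did not pass (adjusted p = 0.0116, edgeR). In naïve cells 1 gene of the wider list was higher and 4 lower at P15 than at P5, and in primed cells 25 were higher and 16 lower. These are 8.33% and 68.3% of those tested, against 9.22% and 47.1% of all genes.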

How the data were processed

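RNA-seq of 9 libraries was used, with 2 for each state and passage and 1 for MEFs, grouped by their titles. The deposited values are raw counts per Ensembl gene, which the authors made from poly(A) RNA with Cutadapt, HISAT2 on mm10 (set to report several alignments of a read) and featureCounts. The annotation release, the strand setting and how featureCounts treated reads with several alignments are not given in the sources used here. Names and coordinates came from GENCODE M21 (54079 of 54232 IDs), and 92 spike-in entries held 0 counts. The members and lists were chosen with earlier results of these data known.

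Computations used R 4.3.3 with edgeR 4.0.16 and DESeq2 1.42.0. Each comparison was fitted on its 4 libraries (the interaction on 8) by edgeR's quasi-likelihood test, two-sided, after TMM scaling. Genes entered with 10 counts or more in 2 or more libraries, with Benjamini-Hochberg adjustment over all genes tested and a threshold of 0.01. CPM per kb was divided by the summed exon length. All members could be named. Full statistics were for members that changed 2-fold in a group comparison and the 3 of each complex group with the smallest adjusted p at each passage, to which some per-library values and adjusted p were added after values were seen. Of the wider list, 3 genes per direction with the largest change at P5 and at least 10 CPM were named.

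A level of 3 counts, 0.143 to 0.209 CPM by library size in the pluripotent libraries, was taken as the limit that a count of 0 allows, for counting error only. Replicates differed by a chi-square per gene of 2.10 to 3.28, above counting noise. The alternatives tried were scaling by DESeq2's size factors or by library size only, all genes kept, all 8 libraries in 1 fit, a replicate block, DESeq2's Wald test, subtraction of MEF counts times the median share of 25 fibroblast markers, and each library left out, where a group of 1 library is assumed to vary like the others.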

Additional observations from a re-analysis of the deposited data

Results flagged for a closer look

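For 16 members the primed-to-naïve log2 difference at P15 was not that at P5 by the interaction test of edgeR (adjusted p under 0.01), and these were marked because an effect that differs between passages is a result to look at again. The differences were positive for *Mbd3* (0.74), *Smarcb1* (0.54), *Smarca4* (0.45), *Chd3* (0.43), *Smarcc2* (0.43), *Smarcd1* (0.40), *Mta1* (0.34), *Actl6a* (0.34), *Smarce1* (0.33), *Chd6* (0.30) and *Mta2* (0.29). They were negative for *Chd5* (−1.26), *Smarca1* (−0.63), *Gatad2b* (−0.39), *Chd7* (−0.30) and *Chd2* (−0.28). The share of members called was 40.0% against 24.1% of all genes. With the feeder share taken off 9 members were called, and by DESeq2's Wald test 11. No share of all genes was formed for those settings, and expression level was not matched. The summed fibroblast markers and the scaling moved with passage, and their part in the result was not tested beyond the alternatives given with the processing. With the feeder share taken off, *Chd3* could not be tested at all.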

How the results depend on the processing

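Direction rested most on scaling. With library size alone, at P5 18 members were higher and 12 lower in primed cells, and *Smarcb1* (0.015), *Chd1* (0.14), *Chd2* (0.16), *Chd3* (0.042), *Gatad2b* (0.039), *Baz1b* (0.057) and *Ep400* (0.18) turned from negative to positive. This setting also gave 5 lower members between passages in naïve cells, 14 lower in primed cells, and 6 positive and 8 negative interactions. With the feeder share taken off, 1 member was called between passages in naïve cells (0 higher and 1 lower), 5 were lower in primed cells, *Smarca2* turned to −0.45 in primed cells, and 9 interactions were called (7 positive and 2 negative). The cause was not tested. The count between passages in naïve cells was the least stable, with 1 call without a low-count filter (0 higher and 1 lower), 2 by DESeq2's Wald test (0 higher), and 7 in a fit of all 8 libraries (6 lower). DESeq2's Wald test called 2 negative interactions, and of the calls between states it lost *Smarcb1*, *Chd3*, *Chd8*, *Gatad2b*, *Baz1a* and *Baz1b* at P5 and *Brd7* and *Hdac2* at P15.

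Without 1 library, the calls numbered 23 to 27 at P5, 22 to 25 at P15, 1 to 5 between passages in naïve cells (0 to 1 higher and 1 to 4 lower), 17 to 24 in primed cells, and 9 to 15 interactions (1 to 5 negative). Labels give no pairing, and deviations of libraries with the same number correlated at −0.127 between states at P5 and −0.19 at P15, and at 0.161 between passages in naïve and 0.159 in primed cells. With 2 pairs per comparison this does not show pairing. A replicate block gave 10 calls between passages in naïve cells (2 higher and 8 lower, adding *Smarca4*, *Arid2*, *Chd2*, *Chd3*, *Chd7* and *Chd9*), 28 and 22 between states at P5 and P15, 24 in primed cells and 15 interactions. DESeq2's size factors left each of the 28 calls at P5 and 24 at P15 on its side. With 2 libraries per group, 22 of 28 calls at P5 and 21 of 24 at P15 held in all alternatives but library size alone.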
